A study of Homo sapiens with 6 samples.

Results

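The Janus kinases and the STAT transcription factors form a short route from a cytokine receptor to the nucleus. JAK1, JAK2 and TYK2 are tyrosine kinases bound to the tails of receptors that have no kinase of their own, and they phosphorylate the receptor and then a STAT, which pairs with another STAT and binds DNA. In macrophages, interferons, IL-6, IL-10, IL-4, IL-13 and GM-CSF all signal this way, whereas CXCL10 acts on CXCR3, a G protein-coupled receptor. The genes described here are STAT2, STAT3, STAT4, STAT5A, STAT5B and STAT6 with JAK1, JAK2 and TYK2. They were chosen by name, with earlier results of these data known. Each of the 9 had a row among the 57316 gene names counted in every library.

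The cells were THP-1, a single human line from a monocytic leukaemia, so the data describe 1 line and not primary macrophages. All libraries came from cells exposed to the phorbol ester PMA at 100 ng/ml for 48 h, which gives THP-1 cells macrophage features. The control group then received a control solution and the other group recombinant human CXCL10 at 100 ng/ml, both for 24 h. Each group had 3 libraries of polyadenylated RNA, numbered 1, 3 and 4. The labels do not say whether these were separate cultures, and the spread that the p-values rest on is that between these samples, which may be technical.

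Between 34782380 and 41023583 reads per library were assigned to genes. Of 12 macrophage and monocyte markers 11 passed the filter on low counts. They ranged from the CSF1 receptor gene CSF1R at 48888 to 63014 reads down to MARCO at only 15 to 58 reads. CD68, named after its values were seen, had 0 to 5 reads, and 85.6% of its exon length is shared with other annotated genes, whose common reads were not counted. Control replicate 4 and CXCL10 replicate 3 stood at opposite ends of a trend with transcript length. Per doubling of exon length their log2 levels moved by -0.065 and 0.071 relative to the mean of all libraries. The members have 4.61 to 8.81 kb of exon, against a median of 4.44 kb over the genes tested, so values without these libraries and with the trend removed are given for the members. Both mates of a read pair were counted, so reads are not independent molecules and counting intervals are too narrow.

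STAT5A and STAT5B are neighbours on chromosome 17 and near copies of each other, which bears on how their reads were counted. The coding sequences of the GENCODE 29 transcripts STAT5A-201 and STAT5B-201 were 88.9% identical over 2345 aligned bases. Their longest identical run was 429 bases, all of it coding. In STAT5A it lies, with 15 bases on either side, within chr17:42295792-42301292 on the plus strand (GRCh38, exons 6 to 10), and in STAT5B within chr17:42218313-42223383 on the minus strand (exons 5 to 9). The 2 ends of the run are shown 5′ to 3′ with the bases that differ between the genes in capitals, because such bases are what tells reads of the pair apart.
STAT5A, 5′ end: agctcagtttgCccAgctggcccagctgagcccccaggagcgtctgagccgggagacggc
STAT5B, 5′ end: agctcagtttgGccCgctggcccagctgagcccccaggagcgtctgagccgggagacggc
STAT5A, 3′ end: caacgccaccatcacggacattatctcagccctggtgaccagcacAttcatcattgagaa
STAT5B, 3′ end: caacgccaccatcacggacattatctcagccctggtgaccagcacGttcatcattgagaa
Reads that mapped to more than 1 place were left out of the counts. Of all 50-base words in the transcripts of STAT5A, 8.61% also occurred in a transcript of STAT5B, and 7.81% of those of STAT5B occurred in STAT5A. At 100 bases the shares were 6.14% and 5.67%, and how many reads were lost there was not tested. None of the other 7 members shared more than 1.37% of its 50-base words with another gene. The largest exon overlap of a member with other genes was 2.37%, in STAT4, whose partner AC067945.3 lies on the opposite strand.

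Levels of different genes were compared as RPKM, the counts scaled to library size and to exon length in kb. STAT6, the transcription factor of IL-4 and IL-13 signalling, was the most abundant member at 35.9 ± 4.25 RPKM (mean ± SD over all 6 libraries), above 92.6% of the genes tested. TYK2, a kinase of the type I interferon, IL-10 and IL-12 receptors, followed at 21.7 ± 2.17. STAT3, which IL-6 and IL-10 activate, was at 14.8 ± 0.974, and STAT2, the interferon-specific STAT, at 10.1 ± 0.884. The ranges of these 4 genes did not overlap with each other over the 6 libraries. Next came JAK1 at 7.56 ± 0.859, STAT5B at 7.01 ± 0.942, STAT5A at 5.39 ± 0.488 and JAK2 at 4.49 ± 0.981. Neighbours among these 4 overlapped in range, although STAT5B exceeded STAT5A in 6 of 6 libraries. STAT4, the factor of IL-12 signalling in T and NK cells, was last at 0.111 ± 0.0290, a level above only 5.32% of the genes tested.

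**Figure D1:**
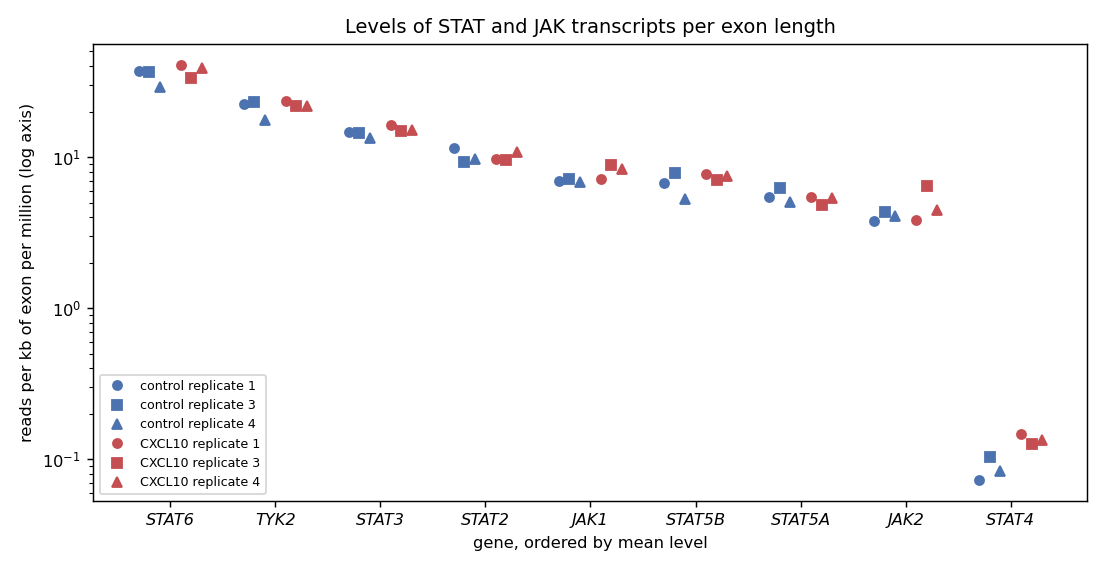
Level of each STAT and JAK gene in RPKM (vertical log axis), 1 point per library, coloured by group and shaped by replicate number, with genes ordered by their mean. STAT6 lay between 28.99 and 40.9 and STAT4 between 0.0730 and 0.146, with the other genes between them.

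Read as a composition, STAT6 supplied 46.4% to 50.9% of the summed RPKM of the 6 STAT genes described here, in every library the largest part. STAT3 supplied 19.4% to 21.4% and STAT2 12.1% to 15.5%. Among the 3 kinases TYK2 supplied 58.7% to 68.2%, JAK1 20.6% to 24.2% and JAK2 11.2% to 17.4%. The lowest share of TYK2 and the highest of JAK2 were those of the same library, CXCL10 replicate 3. The RNA came from whole cultures, so fewer cells with a transcript and less of it per cell cannot be told apart.

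The comparison of CXCL10 with control asked whether transcripts of this signalling route differ after a day with the chemokine. None of the 9 members passed the quasi-likelihood test of edgeR, adjusted over all 16531 genes tested by the Benjamini-Hochberg method, and their adjusted p ran from 0.747 to 0.983. The whole table had 0 calls (0%), with a lowest adjusted p of 0.683. Without adjustment, 0 members had a p under 0.05 by edgeR, DESeq2 or limma-voom, and 1 did by limma-voom with library quality weights (JAK1, adjusted p = 0.188), a method that gave 3022 of all genes tested (18.3%) such a p. Over the whole table edgeR gave 1181 genes such a p (7.14%), 2.5% higher and 4.65% lower with CXCL10. Of the 9 log2 fold changes 7 were above 0, with a median of 0.14, against a median of 0.023 over all genes tested, of which 54% were above 0. Among the 6842 genes with 4 to 9 kb of exon, the median was 0.064 and 63.2% were above 0. In 2 members, STAT3 and STAT4, all CXCL10 libraries lay above all controls, as they did in 5.76% of all genes tested, and in 0 members they lay below (6.48% of all genes).

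The intervals show what size of change these libraries allow. In 8 of the 9 members the 95% interval stayed between -1 and 1 on the log2 scale, as it did for 74.4% of all genes tested. The exception was STAT4. Control replicate 4 was the lowest library for 5 members (STAT3, STAT5B, STAT6, JAK1 and TYK2), and it was the lowest for 29.3% of all genes tested and 34.2% of those with 4 to 9 kb of exon. Without it the median of the members was 0.039, and with the length trend removed it was 0.072.

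**Figure D2:**
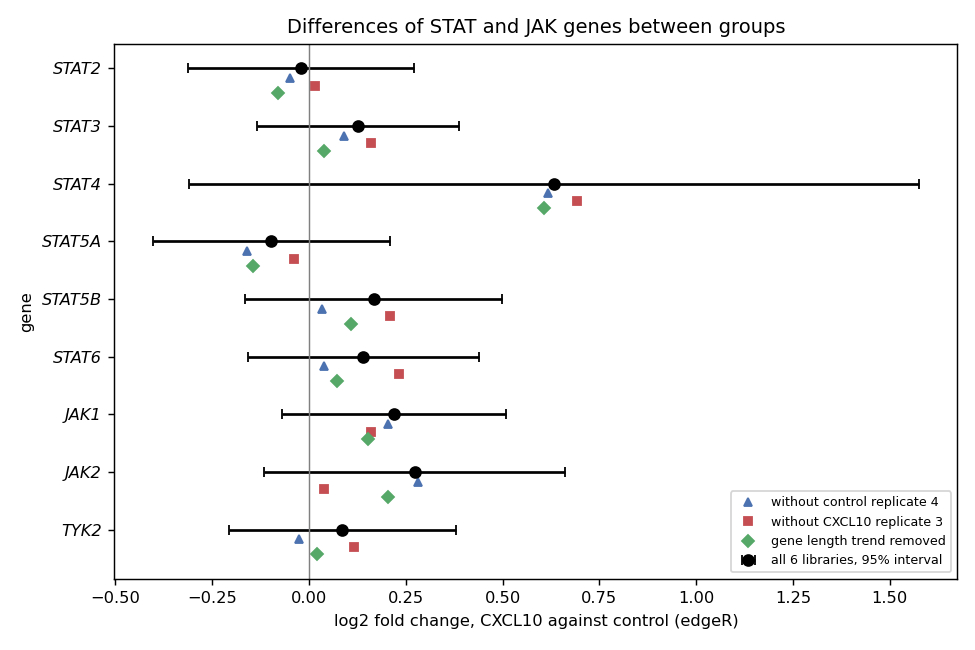
Log2 fold change of each gene, CXCL10 against control, from edgeR (horizontal axis), with its 95% interval for all 6 libraries (black) and point values from fits that leave out control replicate 4 or CXCL10 replicate 3 or take out the length trend. All 9 intervals include 0, and the point of JAK2 lies at 0.040 without CXCL10 replicate 3.

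Among the kinases, JAK1 pairs with most cytokine receptor families, including those of the interferons and of IL-6. Its gene (chromosome 1, 64833229 to 64966549, minus strand, hg38) measured 44.2, 45.7 and 43.4 CPM (counts scaled to library size) in control replicates 1, 3 and 4. With CXCL10 it measured 45.3, 56.4 and 53.5 CPM in the same order of numbers. CXCL10 replicates 3 and 4 lay above every control, while CXCL10 replicate 1 lay inside the control range. On the log2 scale edgeR put the difference at 0.22 ± 0.14 (SE), with an adjusted p of 0.747. It was 0.31 without CXCL10 replicate 1, where the unadjusted p was 0.0285 and the adjusted p 0.387 by edgeR, and where 12.3% of all genes tested had an unadjusted p under 0.05. It was 0.16 without CXCL10 replicate 3 (unadjusted p = 0.245 by edgeR), 0.15 with the length trend removed and 0.13 without both CXCL10 replicate 3 and control replicate 4.

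JAK2 is the kinase of the receptors for GM-CSF, IL-3 and erythropoietin and takes part in interferon gamma signalling. Its gene (chromosome 9, 4984390 to 5128183, plus strand) measured 23.2, 26.8 and 25.3 CPM in control replicates 1, 3 and 4 and 23.8, 39.6 and 27.5 CPM in CXCL10 replicates 1, 3 and 4. CXCL10 replicate 3 stood 1.56-fold above the mean of the other 5 libraries, which all lay between 23.2 and 27.5 CPM. The groups overlapped, and the coefficient of variation was 27.2% with CXCL10 against 7.18% in controls. The fitted log2 difference, 0.27 ± 0.18 (edgeR adjusted p = 0.765), was 0.040 without CXCL10 replicate 3 and 0.20 with the length trend removed. Without CXCL10 replicate 1 it was 0.42, with an unadjusted p of 0.0346 and an adjusted p of 0.390 by edgeR.

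TYK2 (chromosome 19, 10350529 to 10380676, minus strand) measured 152, 157 and 119 CPM in control replicates 1, 3 and 4. With CXCL10 it measured 159, 147 and 148 CPM. The groups overlapped, and control replicate 4 stood apart as the lowest. The fitted log2 difference was 0.086 ± 0.14 (edgeR adjusted p = 0.908), -0.026 without control replicate 4 and 0.022 with the length trend removed.

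**Figure D3:**
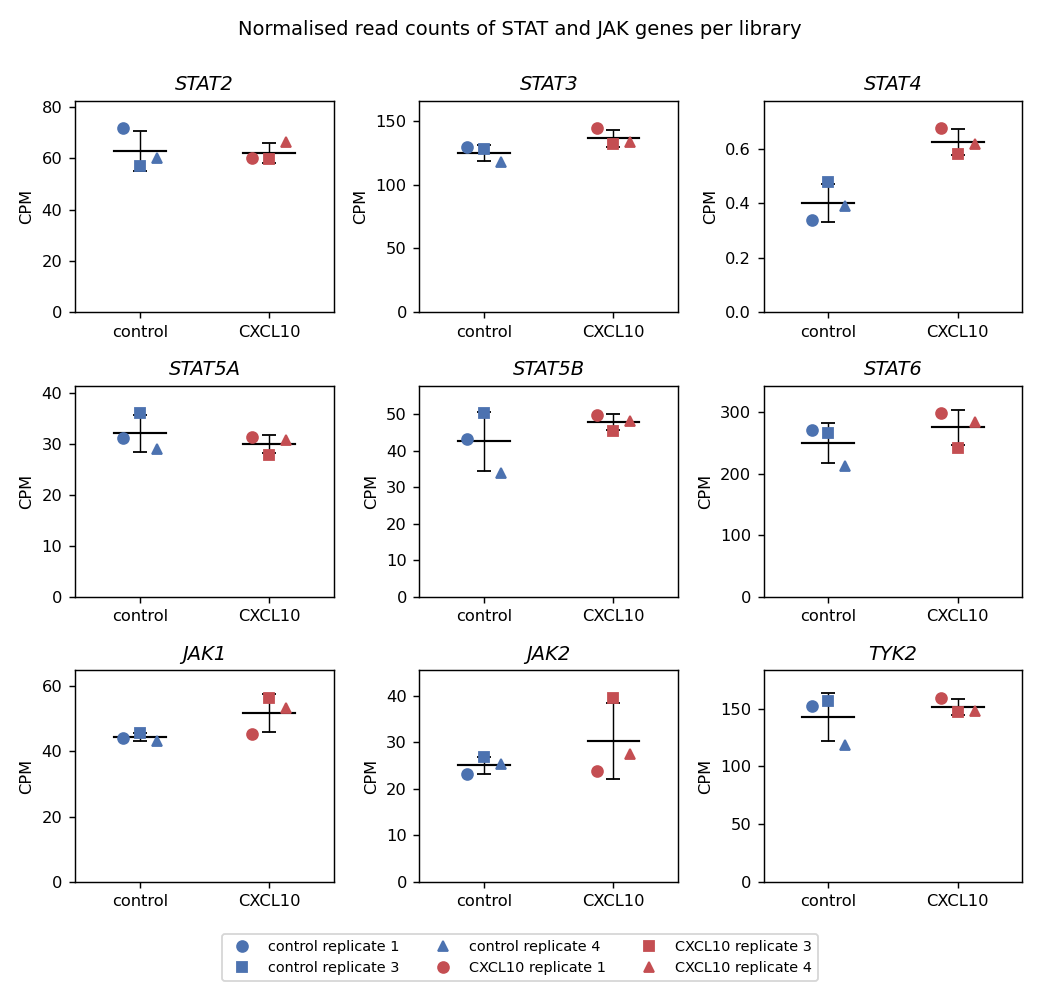
Normalised read counts (CPM, vertical axis from 0) of the 9 genes in each library, with control in blue and CXCL10 in red and the replicate number as the marker shape. Black lines and bars give the mean ± SD of 3 libraries. The groups overlap for every gene except STAT3 and STAT4, and JAK2 is highest in CXCL10 replicate 3 at 39.6 CPM.

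Among the STATs, STAT6 (chromosome 12, 57095408 to 57132139, minus strand) measured 270, 266 and 212 CPM in control replicates 1, 3 and 4. The CXCL10 libraries measured 298, 242 and 284 CPM. Control replicate 4 and CXCL10 replicate 3 were the 2 lowest libraries, 1 in each group, and the groups overlapped. Their log2 difference was 0.14 ± 0.14 (edgeR adjusted p = 0.842). It was 0.039 without control replicate 4, 0.23 without CXCL10 replicate 3 and 0.072 with the length trend removed.

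Of 12 listed genes that STAT6 is known to induce 8 were tested, 6 above 0 and 2 below, with a median of 0.11 and 0 called. F13A1, the coagulation factor XIII A chain gene, measured 1.29 CPM in controls and 1.61 with CXCL10 (means of 3 libraries), or 0.32 ± 0.30 on the log2 scale. The transglutaminase gene TGM2 measured 35.1 and 32.5 CPM, or -0.11 ± 0.14. Both had the lowest p-values of the list and neither passed (adjusted p = 0.835 and 0.876 by edgeR). CCL18 and MAOA, also on the list, had 0 reads in all 6 libraries.

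STAT3 (chromosome 17, 42313324 to 42388568, minus strand) measured 129, 128 and 118 CPM in control replicates 1, 3 and 4. With CXCL10 it measured 144, 132 and 134 CPM. The lowest CXCL10 library, at 131.6 CPM, was only just above the highest control, at 129.2 CPM. Variation between libraries was small, and only 5.32% of the genes tested had a lower SD of log2 CPM. The log2 difference was 0.13 ± 0.12 (edgeR adjusted p = 0.835), with a 95% interval from -0.13 to 0.39. It was 0.090 without control replicate 4 and 0.040 with the length trend removed.

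STAT5B (chromosome 17, 42199168 to 42276707, minus strand), a factor of GM-CSF, growth hormone and IL-2 signalling, measured 43.3, 50.3 and 34.0 CPM in control replicates 1, 3 and 4 and 49.8, 45.5 and 48.1 CPM with CXCL10. Control replicates 3 and 4 were the highest and the lowest of all libraries, so the CXCL10 values lay inside the control range. The log2 difference, 0.17 ± 0.15 (edgeR adjusted p = 0.828), was 0.32 without control replicate 3, 0.033 without control replicate 4 and 0.11 with the length trend removed.

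STAT5A (chromosome 17, 42287547 to 42311943, plus strand), its close relative with overlapping functions, measured 31.2, 36.0 and 28.97 CPM in control replicates 1, 3 and 4 and 31.3, 27.9 and 30.8 CPM with CXCL10. The groups overlapped, with CXCL10 replicate 3 lowest. edgeR gave a log2 difference of -0.097 ± 0.14 (adjusted p = 0.899), and it was 0.011 without control replicate 3, -0.16 without control replicate 4 and -0.14 with the length trend removed.

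The ratio of the STAT5 genes separated the groups although neither gene did so alone. Of all single genes tested, 12.2% separated the groups in either direction, and how often ratios of genes do so was not tested. STAT5A supplied 44.6%, 44.5% and 48.8% of the STAT5A plus STAT5B reads per kb in control replicates 1, 3 and 4. With CXCL10 it supplied 41.3%, 40.7% and 41.7%. Every CXCL10 library was below every control, with means of 46.0% ± 2.46 and 41.3% ± 0.519 (SD, n = 3 each) and a difference of -4.73 percentage points. An exact permutation test, two-sided, gave p = 0.1, which is its lower limit with 3 libraries in each group, so the design cannot reach 0.05. Without control replicate 4, the highest library, the difference was -3.30 percentage points and the groups still did not overlap (exact permutation p = 0.2, the smallest for 2 against 3). Scaling between libraries cancels in this share, and the part of reads from the identical stretch shown above in it was not tested.

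**Figure D4:**
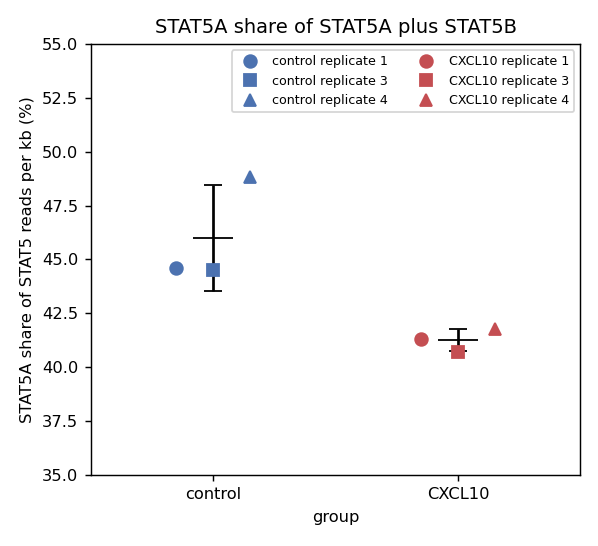
STAT5A share of STAT5A plus STAT5B reads per kb of exon in each library, in percent (vertical axis from 35 to 55), by group and replicate number, with the mean ± SD of 3 libraries in black. The 3 controls lie between 44.5% and 48.8% and the 3 CXCL10 libraries between 40.7% and 41.7%.

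Targets of STAT3 and STAT5 lay on both sides of 0. All 13 listed genes were tested, 6 above 0 and 7 below, with a median of -0.014 and 0 called. OSM, which encodes the cytokine oncostatin M, measured 1.53 CPM in controls and 1.98 with CXCL10, or 0.37 ± 0.27 on the log2 scale (edgeR adjusted p = 0.778), without overlap between groups. The feedback inhibitor gene SOCS3 measured 1.11 and 1.36 CPM, or 0.29 ± 0.34 (edgeR adjusted p = 0.867).

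STAT4 (chromosome 2, 191029576 to 191151596, minus strand) had few reads: 13, 18 and 13 reads in control replicates 1, 3 and 4 and 25, 25 and 22 reads in the CXCL10 libraries, or 0.336, 0.476 and 0.389 CPM against 0.674, 0.580 and 0.617 CPM. The groups did not overlap. edgeR gave a log2 difference of 0.63 ± 0.44 (adjusted p = 0.765), with a 95% interval from -0.31 to 1.58, or 0.807-fold to 2.98-fold. With the length trend removed it was 0.61, and without control replicate 4 it was 0.62. Over the group the sums were 44 reads (95% Poisson interval 32.0 to 59.1) and 72 reads (56.3 to 90.7). These intervals leave out the spread between libraries. They also take reads as independent although both mates were counted, so they are too narrow even for counting error. As STAT4 is a gene of T and NK cells, their markers were read beside it. Of 7 T cell markers 2 passed the filter, CD3D, CD3E and CD3G had at most 10 reads in any library, and CD2 had 0 in all 6. The summed level of the 7, in CPM of unscaled totals, was 204.1 to 267.7 in controls and 251 to 285 with CXCL10. Nearly all of it came from TRAC (247 and 258 CPM on average, with scaled totals). Of 4 NK markers 3 passed, with sums of 165 to 199.7 and 142 to 168 CPM (unscaled totals). Most of these came from GNLY (182 and 142 CPM on average, with scaled totals). The sums and the single genes are thus on different scales.

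Among receptors, IL12RB2, a chain of the IL-12 receptor that signals through TYK2, JAK2 and STAT4, had the lowest p of the list. Its level was 9.57, 10.6 and 10.4 CPM in control replicates 1, 3 and 4 against 13.3, 13.9 and 14.6 CPM with CXCL10, without overlap. edgeR gave 0.45 ± 0.15 on the log2 scale (unadjusted p = 0.0108, adjusted p = 0.683). The type I interferon receptor gene IFNAR2 was next at mean levels of 5.15 and 3.74 CPM, or -0.46 ± 0.24 (edgeR adjusted p = 0.702), also without overlap. For IFNAR2, 83.2% of the exon length is shared with other annotated genes, and reads there were left out. Of 32 listed receptor genes 27 were tested, 21 above 0 and 6 below, with a median of 0.13 and 0 called. Control replicate 4 was the lowest library for 12 of the 27 and CXCL10 replicate 3 the highest for 11. With both libraries left out together the median was 0.012, with 15 of the 27 above 0. With the length trend removed and all libraries kept, it was 0.10, with 19 of the 27 above 0. CSF2RA and IL3RA, the specific chains of the GM-CSF and IL-3 receptors, are named here because they were listed at 0 in every library. Their rows list exons on both X and Y, and reads with more than 1 mapping place were left out, so absence cannot be told from loss in counting.

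STAT2 (chromosome 12, 56341597 to 56360167, minus strand) joins IRF9 in the complex ISGF3, which drives the genes induced by type I interferon. It measured 71.8, 57.1 and 60.1 CPM in control replicates 1, 3 and 4. With CXCL10 it measured 60.2, 59.7 and 66.5 CPM. Control replicate 1 was the highest library and control replicate 3 the lowest, with the CXCL10 libraries between them. The log2 difference was -0.021 ± 0.14 (95% interval -0.31 to 0.27, edgeR adjusted p = 0.983), and it was 0.083 without control replicate 1 and -0.081 with the length trend removed.

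Control replicate 1 was also the highest library for 13 of the 15 ISGF3 targets tested, whereas it was the highest for 9.47% of all genes tested. The summed level of the 15 targets was 1583, 1307 and 1198 CPM (unscaled totals) in control replicates 1, 3 and 4 and 1536, 1114 and 927 in the CXCL10 libraries. Thus CXCL10 replicate 1, the second highest by this sum, had a STAT2 level of 60.2 CPM, and CXCL10 replicate 4, the lowest by this sum, had the second highest STAT2 level. Of the targets 4 were above 0 and 11 below, with a median log2 difference of -0.11 and 0 called by edgeR. In both groups the sum of the targets was highest in replicate 1 and lowest in replicate 4. Control replicate 4 was the lowest library for 8 targets and CXCL10 replicate 4 for 7. With the replicate number as a block in the edgeR fit, the median was -0.074, with 5 of 15 above 0. The side of the median depended on single libraries of both groups. Without control replicate 1 the median was 0.20, with 12 of 15 above 0, and without CXCL10 replicate 4 it was 0.078, with 10 above 0. Without control replicate 4 it was -0.33 and without CXCL10 replicate 1 it was -0.27, each with 1 above 0. With control replicate 4 and CXCL10 replicate 3 left out together it was -0.39, with 0 of 15 above 0. With the length trend removed and all libraries kept, it was -0.11, with 3 above 0. ISG15, a ubiquitin-like modifier, measured 27.2 ± 6.93 CPM in controls and 19.4 ± 6.56 CPM after CXCL10 (SD, n = 3 each), or -0.49 ± 0.23 on the log2 scale (edgeR adjusted p = 0.694). IFI6, which encodes a small interferon-induced membrane protein, made up most of the sum, at means of 1116 and 894 CPM (-0.32 ± 0.18, edgeR adjusted p = 0.719). With limma-voom and library quality weights, the median of the list was -0.64 with 0 of 15 above 0. Of the 15, 14 had an unadjusted p under 0.05, against 18.3% of all genes tested by that method. The targets share their libraries, and 13 were highest in the same one, so these are not 14 separate results. By that method 1 gene of the list passed, IFI6 at -0.58 (adjusted p = 0.0458), where 42 of all genes tested (0.254%) did. IRF9 itself, named for its role and not for its change, measured 1.70 and 2.14 CPM, but 45.5% of its exon length is shared with AL136295.5.

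Negative regulators and cofactors of the route gave no call either. Of 18 tested negative regulators (SOCS and PIAS proteins, tyrosine phosphatases, SH2B3 and USP18) 13 were above 0 and 5 below, with a median of 0.094. PTPRC, the gene of the phosphatase CD45, had mean levels of 158 and 215 CPM, or 0.45 ± 0.16 on the log2 scale (unadjusted p = 0.0167, adjusted p = 0.683 by edgeR), and was highest in CXCL10 replicate 3 at 272 CPM. PIAS3, an inhibitor of STAT3, measured 12.2 and 17.3 CPM without overlap, or 0.50 ± 0.24 (edgeR adjusted p = 0.694), and was lowest in control replicate 4 at 7.35 CPM. Of 15 cofactors and adaptors 11 were above 0 and 4 below, with a median of 0.12. PIK3R1, a regulatory subunit of PI3-kinase, measured 23.1 and 31.9 CPM (0.47 ± 0.20, edgeR adjusted p = 0.683), and the adaptor gene STAM2 measured 22.1 and 26.5 CPM (0.26 ± 0.16, edgeR adjusted p = 0.747). PIK3R1 and STAM2 were highest in CXCL10 replicate 3, at 41.7 and 32.2 CPM, and for both the groups overlapped. Control replicate 4 was the lowest library for 7 of the 18 regulators and 7 of the 15 cofactors, and CXCL10 replicate 3 the highest for 8 and 7. Without both libraries the medians were 0.036 and 0.044. With the length trend removed they were 0.0092, with 9 regulators above 0 and 9 below, and 0.075, with 8 cofactors above 0 and 7 below.

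**Figure D5:**
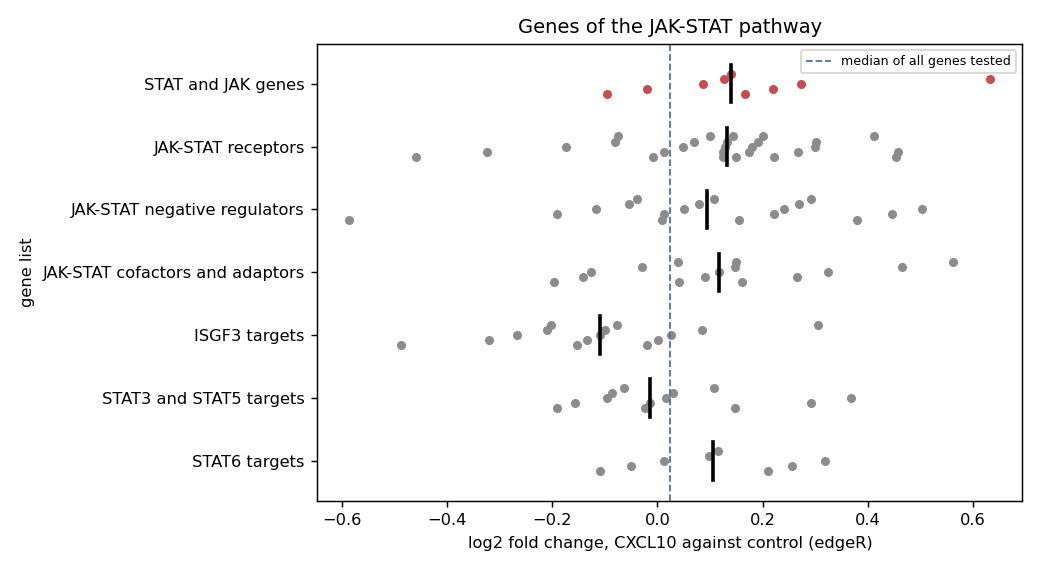
Log2 fold changes from edgeR, CXCL10 against control (horizontal axis), of every tested gene (points) in the STAT and JAK set (red) and in 6 lists of the pathway (grey), with each list's median as a black bar and the median of all genes tested, 0.023, as a dashed line. The ISGF3 targets have the lowest median at -0.11, and no point passed the adjusted threshold.

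Each member was also set beside the genes whose log2 CPM followed it most closely over the 6 libraries, searched among 8746 genes with a mean of at least 10 CPM. The points share their libraries, so the coefficients below describe these 6 libraries only. JAK2 ran closest to TET2 (Pearson's r = 0.996) and SECISBP2L (0.995), both highest in CXCL10 replicate 3, and 269 genes had an r above 0.95 with it. TYK2 ran closest to CDK11B (0.999) and SLC37A1 (0.998), both lowest in control replicate 4, with 287 genes above 0.95. STAT6 was closest to ITPKB (0.999) and MYO9B (0.998), STAT5B to DDX55 (0.996) and PFKFB3 (0.995), STAT3 to POR and LIMK2 (both 0.991), and JAK1 to WAC-AS1 (0.995) and MOSPD2 (0.992). STAT2 had 1 gene above 0.95, KIAA1586 (0.982), followed by PSMG3-AS1 (0.937). STAT5A was closest to FBXO7 (0.979) and PIAS4 (0.964), and STAT4 to CASP10 (0.970) and IKZF1 (0.969). Only STAT2, STAT4 and STAT5A had fewer than 10 genes above 0.95, with 1, 4 and 6, and STAT4 had only 13 to 25 reads per library. The named genes were picked as the highest of the 8746. How many genes pass 0.95 for a gene outside the members was not tested, so these counts have no background.

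The start regions of the members were searched for the DNA motifs that STATs are known to bind. RefSeq windows from 250 bases before to 50 bases after the start site (GRCh38.p14) were found for 9 of 9 members, 17 windows in all. The motif TTCNNNGAA, the common STAT site, matched 0 of the 17, and 7.66% of 35116 windows of all genes. TTC and GAA with 4 bases between them, the spacing that STAT6 prefers, matched 1 window, against 6.44% of all. It reads TTCCTCTGAA and begins at position -229 from a start site of STAT5A, in the window chr17:42287189-42287488 on the plus strand. The core of the interferon response element, GAAA and GAAA with 2 bases between them, searched on both strands, matched 0, against 3.57% of all. Both TTC motifs read the same on either strand. With 17 windows these counts cannot be told from the share in all windows. A match describes letters only, and its absence says nothing about binding elsewhere.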

How the data were processed

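Polyadenylated RNA of PMA-treated THP-1 cells was sequenced in 3 control and 3 CXCL10 libraries, grouped by their titles. The deposited values are raw read counts per gene name, which the authors obtained from featureCounts 2.0.6 and the exons of GENCODE 30, per the file headers. Trim Galore, STAR, Subread and hg38 are named in the submitters' processing notes, and aligner settings were not found there. Per the file headers, pairs were not counted as 1 unit, no strand was set, and reads over several genes or places were left out. Even values made up 75.8% of counts from 1 to 20 in control replicate 4 and 66.8% to 68% in each of the other libraries.

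From these counts, edgeR 4.0.16 in R 4.3.3 gave filterByExpr, TMM factors and a quasi-likelihood test of group over all genes, with Benjamini-Hochberg adjustment at 0.05. SEs were derived from the F statistic. CPM used TMM-scaled totals, RPKM divided CPM by the files' exon length, and log2 CPM used a prior count of 2. No pair of libraries was identical. Alternatives included DESeq2 1.42.0, limma-voom (limma 3.58.1), other scalings and filters, halved counts, removal of a lowess length trend per library, a replicate block and each library left out. Leaving out both outlying libraries was added after seeing the data. The members and lists were chosen with earlier results of these data known. Named list genes are the 2 with the lowest p where none passed. Sequences come from GENCODE 29 transcripts and RefSeq. JAK-STAT genes outside the 9 members and the lists were not analysed here.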

Additional observations from a re-analysis of the deposited data

How the results depend on the processing

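Under all 20 alternatives run, 0 of the 9 members passed the adjusted threshold, and the lowest adjusted p of any member was 0.188 (JAK1, limma-voom with library quality weights). STAT4 was not tested with at least 1 CPM in 3 libraries. Of all genes tested, 137 were called with no filter on low counts, 42 by limma-voom with library quality weights, which also called 1 of the ISGF3 targets, and 6 without control replicate 4 and CXCL10 replicate 3 together. With 1 library left out at a time, the median of the members ran from 0.039 (without control replicate 4) to 0.20. It was -0.011 without control replicate 4 once length was corrected for. The sign changed in 12 of 179 refits of a member. STAT2 was 0.057 scaled by library size only and 0.000115 with quality weights, and ran from -0.073 to 0.083 with 1 library left out. TYK2 was -0.022 with quality weights, -0.077 without control replicate 4 and with length corrected for, and -0.0086 without both outlying libraries, and ran from -0.026 to 0.17 with 1 library left out. STAT5B and STAT6 were -0.011 and -0.017 without control replicate 4 and with length corrected for. STAT5A ran from -0.16 to 0.011 with 1 library left out. The cause of these changes was not tested. The STAT5A share differed by -5.46 to -3.30 percentage points with 1 library left out.

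Over all genes tested, the replicate numbers did not show as pairs of libraries, which does not exclude pairing for some genes. The summed level of the ISGF3 targets fell from replicate 1 to 3 to 4 in both groups. Deviations from the group means correlated by 0.026, 0.019 and -0.051 between same-numbered libraries 1, 3 and 4, and control replicate 1 correlated best with CXCL10 replicate 4. With the replicate block, 0 members and 0 genes were called, 1323 genes had an unadjusted p under 0.05, and the median of the members was 0.14.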
